A study of Chrysemys picta and Apalone spinifera with 20 samples.

Results

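Foxl2 (forkhead box L2) was followed through the embryonic development of 2 turtles as the single entry XM_005282516, which is 1 of 13942 entries found in either of the deposited count tables. The entry was picked by its identifier and not by a rule on its values, though earlier results of these data were known. It had counts in all 20 libraries. RNA came from embryos of Chrysemys picta, the painted turtle, in which incubation temperature decides sex (TSD), and of Apalone spinifera, the spiny softshell turtle, in which sex is genetic (GSD). Eggs were incubated at 31 °C, the female-producing temperature (FPT) of Chrysemys, or at 26 °C, its male-producing temperature (MPT), and tissue was taken at stages 9 (trunks), 12 and 15 (adrenal-kidney-gonad complexes, AKGs), and 19 and 22 (gonads). Each combination of species, temperature and stage was 1 library, pooling 10 Chrysemys embryos or 5 Apalone embryos of unrecorded sex, so that a temperature comparison within a stage has no replicate, and the sex makeup of an Apalone pool and its temperature cannot be told apart. Because tissue changed with stage, an effect of tissue and one of age cannot be told apart either.

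Foxl2 is a winged-helix transcription factor. In the mammalian ovary it is made by granulosa cells and their precursors, where it supports the transcription of Aromatase (Cyp19a1), the enzyme that turns androgens into estrogens, and represses Sox9, the factor that drives Sertoli cell formation. In mammals it is also made in the eyelid and the pituitary. The study's annotation describes the entry as a forkhead box protein L2-like transcript, and the reference table names the same transcript Foxl2. That table lists 3 genes of the forkhead L class, of which only this entry was found by symbol in the count tables. Many entries had no symbol, so another member may be present unnamed. Reads of a close relative counted here could not be set apart.

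Libraries differed in depth. They held 11610098 to 24606646 counts in Chrysemys (median 16090180) and 5544730 to 9501484 in Apalone (median 7679013), and each read pair adds 2 counts. Levels are given as scaled CPM, which are counts divided by the library total and an upper-quartile factor, and their intervals are exact 95% intervals computed on read pairs, which cover counting error only. The reads of both species were mapped to Chrysemys genes, so levels were compared within a species and not between species. Gonad markers (Nr5a1, Gata4, Lhx9, Emx2 and Amh), summed in scaled CPM, reached 63.2 to 1979 in the 4 Chrysemys gonad libraries and 166 to 431 in the 4 Apalone gonad libraries, against 17.3 to 39.1 and 12.2 to 204 in the earlier tissues. Amh alone made up 1781 of the sum of 1979, in Chrysemys at stage 22 and 26 °C, so that sum is not a measure of gonad content. Skeletal muscle markers were also present in gonads: all 8 measured markers together stood at 1298 at 31 °C and 59.7 at 26 °C in Chrysemys stage 22, and at 10077 at 31 °C and 385 at 26 °C in Apalone stage 22. In bulk tissue, fewer cells of a type and less RNA per cell cannot be told apart.

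In Chrysemys, Foxl2 was a low-count gene that stood highest in the late gonads and the trunks of 31 °C embryos. In stage order, from the trunk to the late gonad, its counts were 114, 34, 6, 40 and 100 at 31 °C. At 26 °C they were 14, 4, 4, 20 and 6. The 31 °C libraries thus trace a high level in the trunk, lower levels in the AKGs and a high level again in the gonad. No 26 °C library exceeded 20 counts.

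Expressed as levels, the 31 °C libraries of Chrysemys stood at 4.61 (3.49 to 5.97), 1.44 (0.836 to 2.30), 0.473 (0.0976 to 1.38), 3.41 (2.08 to 5.27) and 6.24 (4.63 to 8.23) scaled CPM in the same order. The 26 °C libraries stood at 0.673 (0.271 to 1.39), 0.277 (0.0336 to 1.001), 0.359 (0.0435 to 1.30), 0.716 (0.344 to 1.32) and 0.449 (0.0926 to 1.31). The 31 °C level was above the 26 °C level at all 5 stages, a pattern without a test that 5.11% of 13173 Chrysemys genes with counts shared. At stages 9, 19 and 22 the 2 intervals did not touch, while at stages 12 and 15 they overlapped.

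**Figure D1:**
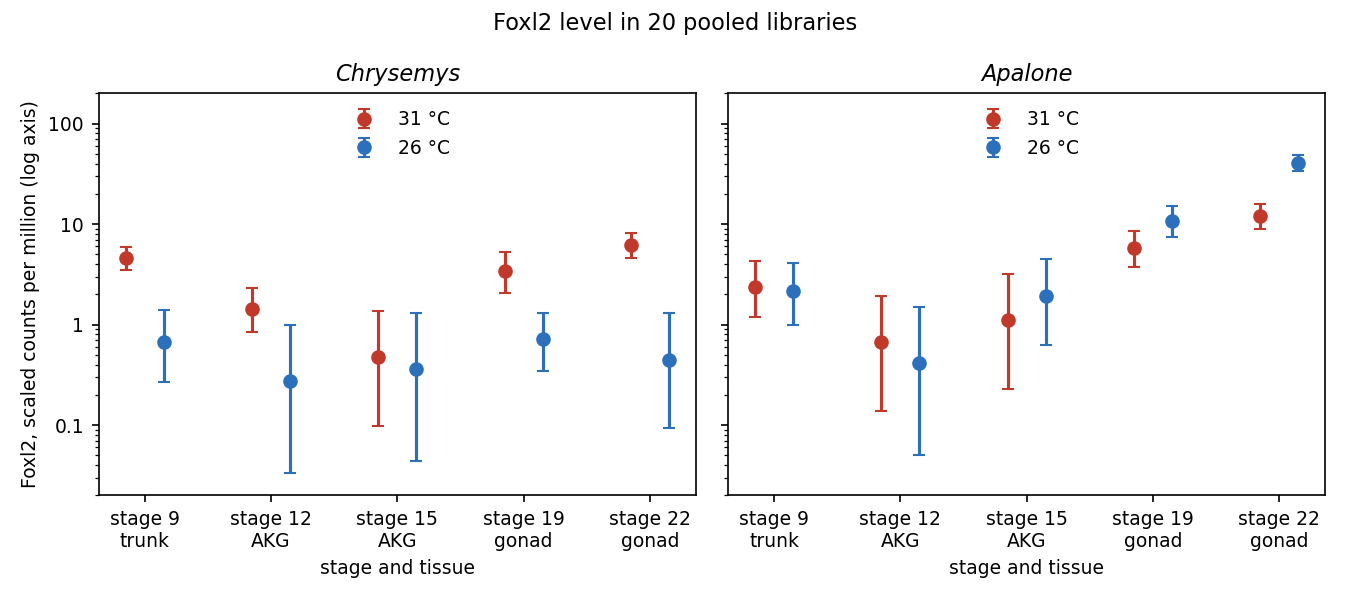
Foxl2 level (scaled CPM, logarithmic axis) by stage in Chrysemys (left) and Apalone (right) at 31 °C and 26 °C, 1 pooled library per point, with exact 95% intervals on read pairs. The 31 °C libraries of Chrysemys lie above those at 26 °C at every stage, with the widest gap at stage 22 (6.24 at 31 °C and 0.449 at 26 °C), while in Apalone the 26 °C libraries are the higher ones at stages 15, 19 and 22 (12.1 at 31 °C and 40.8 at 26 °C at stage 22).

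In the Apalone libraries, Foxl2 stood higher in the gonads than at the earlier stages at both temperatures, and highest at 26 °C. At 31 °C the Apalone libraries had 22, 6, 6, 48 and 96 counts in stage order. At 26 °C they had 18, 4, 10, 66 and 258 counts. The 26 °C gonad pool of stage 22 held more Foxl2 counts than the other 4 libraries of that temperature together, and more than any other Apalone library.

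As levels, Apalone Foxl2 stood at 2.40 (1.20 to 4.29), 0.665 (0.137 to 1.94), 1.10 (0.228 to 3.22), 5.79 (3.71 to 8.61) and 12.1 (8.91 to 16.0) scaled CPM at 31 °C. At 26 °C it stood at 2.18 (0.997 to 4.14), 0.418 (0.0506 to 1.51), 1.93 (0.628 to 4.52), 10.8 (7.46 to 15.2) and 40.8 (34.1 to 48.5). The intervals of the 2 temperatures were apart at stage 22 alone. The lowest level at each temperature was at stage 12, in the AKG, on 6 counts at 31 °C and 4 at 26 °C. At these counts it was not distinguishable from stage 15. The ratio of stage 15 to stage 12 was 1.66 (0.222 to 12.4) at 31 °C and 4.63 (0.757 to 48.6) at 26 °C.

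The question of each stage was whether Foxl2 differs between the temperatures. In a two-sided Fisher's exact test of the 2 libraries of a stage, adjusted by Benjamini-Hochberg over all genes with a count and called at the study's threshold of an adjusted p under 1e-10, Foxl2 of Chrysemys was called higher at 31 °C at stages 9 and 22. At stage 22 the 31 °C level was 13.9 times the 26 °C level (counting interval 4.49 to 69.7, adjusted p = 5.27e-19). The same call was made for 13.6% of the genes tested at that stage. At stage 9 the ratio was 6.84 (3.11 to 17.8, adjusted p = 1.40e-16), where 14.8% of genes were called higher at 31 °C.

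Stages 12, 15 and 19 of Chrysemys did not reach that threshold. At stage 19 the ratio was 4.76 (2.13 to 11.4, adjusted p = 1.21e-08 by Fisher's exact test), and 16.3% of genes were called higher at 31 °C there. At stage 12 it was 5.18 (1.23 to 46.2, adjusted p = 0.000969), with 4.9% called. The stage 15 ratio of 1.32 had an interval of 0.151 to 15.8 on 6 counts at 31 °C and 4 at 26 °C (adjusted p = 0.82), so a difference was not detectable at this depth, and 8.79% of genes were called higher at 31 °C.

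The deposited counts take each read pair as 2 observations. With every pair counted once, Fisher's exact test gave Chrysemys adjusted p-values of 1.75e-08, 0.0478, 1, 8.99e-05 and 1.33e-09 in stage order, so neither stage 9 nor stage 22 passed the threshold of 1e-10. On read pairs 9.86% of genes were called higher at 31 °C at stage 9 and 8.81% at stage 22. These tests compare libraries and not conditions, since the spread between pools was not measured.

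In Apalone only stage 22 was called, in the opposite direction. There the 31 °C level was 0.296 times the 26 °C level (0.208 to 0.416), which is 3.38 times higher at 26 °C (2.41 to 4.81, adjusted p = 4.82e-26 by Fisher's exact test and 5.68e-13 on read pairs). At that stage 6.38% of genes were called higher at 26 °C, and 3.13% on read pairs. At stage 19 the ratio of 31 °C to 26 °C was 0.534 (0.302 to 0.932, adjusted p = 0.00281, and 0.0698 on read pairs), which did not pass, beside 6.38% of genes called higher at 26 °C.

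The earlier Apalone stages gave ratios near or across 1. They were 1.10 at stage 9 (0.414 to 3.0, adjusted p = 0.95), 1.59 at stage 12 (0.182 to 19.0, adjusted p = 0.677) and 0.570 at stage 15 (0.0885 to 2.93, adjusted p = 0.461), all by Fisher's exact test. With 4 to 22 counts in these libraries, the intervals admit differences of over 2-fold in either direction. Genes called higher at 31 °C made up 2.14%, 3.26% and 3.68% at these stages, and genes called higher at 26 °C 2.39%, 2.11% and 4.81%.

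**Figure D2:**
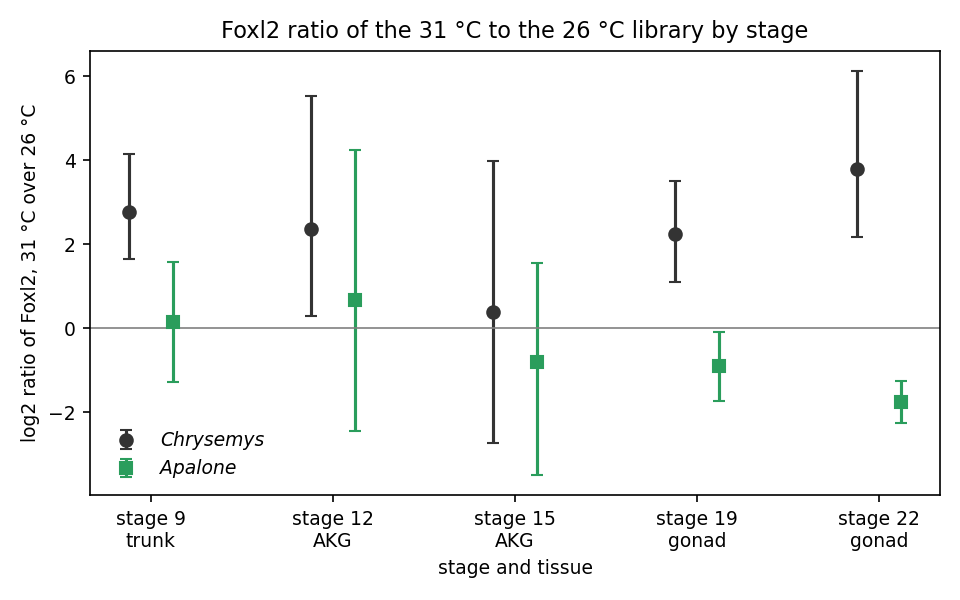
Ratio of the Foxl2 level at 31 °C to that at 26 °C (log2 axis) by stage in Chrysemys and Apalone, with exact 95% counting intervals on read pairs; the horizontal line marks equal levels. Chrysemys ratios are above the line at all 5 stages (2.77 at stage 9 and 3.8 at stage 22 in log2), and Apalone falls to -1.76 at stage 22.

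Over the stages, which are the only repeats of a temperature, Foxl2 of Chrysemys was higher at 31 °C, in a test that did not pass after adjustment. The edgeR quasi-likelihood fit with stage as a block gave a log2 fold change of 2.43 ± 0.49 (SE, 31 °C over 26 °C, 10 libraries, adjusted p = 0.455), with 2 of 12827 genes called at an adjusted p under 0.05 (0.0156%). DESeq2 with the same design gave 2.41 with an adjusted p of 0.00961 and called 48 genes. In the gonads of stages 19 and 22 the edgeR effect was 2.89 ± 0.73 (adjusted p = 0.0708), where 1.22% of genes were called higher, and DESeq2 gave 2.95 with an adjusted p of 0.0166. The gonad effect was 2.14 (adjusted p = 0.535) without stage 22 and 3.79 (adjusted p = 0.0873) without stage 19.

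At stages 9 to 15 the Chrysemys effect was 2.06 ± 0.66 (adjusted p = 1), with 0 genes called by edgeR and 315 at an unadjusted p under 0.05. The difference between the gonad effect and that of the earlier stages was 0.83 ± 0.98 (adjusted p = 0.845 in edgeR, with 0.507% of genes called). The gonad difference was therefore not shown to exceed the earlier one.

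In Apalone the corresponding effects were -0.74 ± 0.36 over the stages (adjusted p = 0.347), -1.34 ± 0.40 in the gonads (adjusted p = 0.208) and -0.02 ± 0.46 at stages 9 to 15 (adjusted p = 0.998), all from edgeR. Of 10644 genes, edgeR called 3 over the stages (0.0282%) and 0 in the gonads, where 1671 had an unadjusted p under 0.05 and DESeq2 called 252.

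The temperature effect of Foxl2 was then set against itself between the species, in an edgeR fit of all 20 libraries over the genes in both tables. In the gonads it was 4.25 ± 0.82 log2 units higher in Chrysemys than in Apalone (adjusted p = 0.117). Over all stages the difference was 3.17 ± 0.62 (adjusted p = 0.273), and at stages 9 to 15 it was 2.11 ± 0.80 (adjusted p = 1). edgeR called 0 of 12110 genes in the gonad contrast, where 1242 had an unadjusted p under 0.05. DESeq2 called 108 genes there, Foxl2 among them at a difference of 4.35 (adjusted p = 0.00165). Foxl2 was higher at 31 °C at stages 19 and 22 in Chrysemys and lower at both in Apalone, as were 7.93% of the 11504 genes with counts in all these comparisons.

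**Figure D3:**
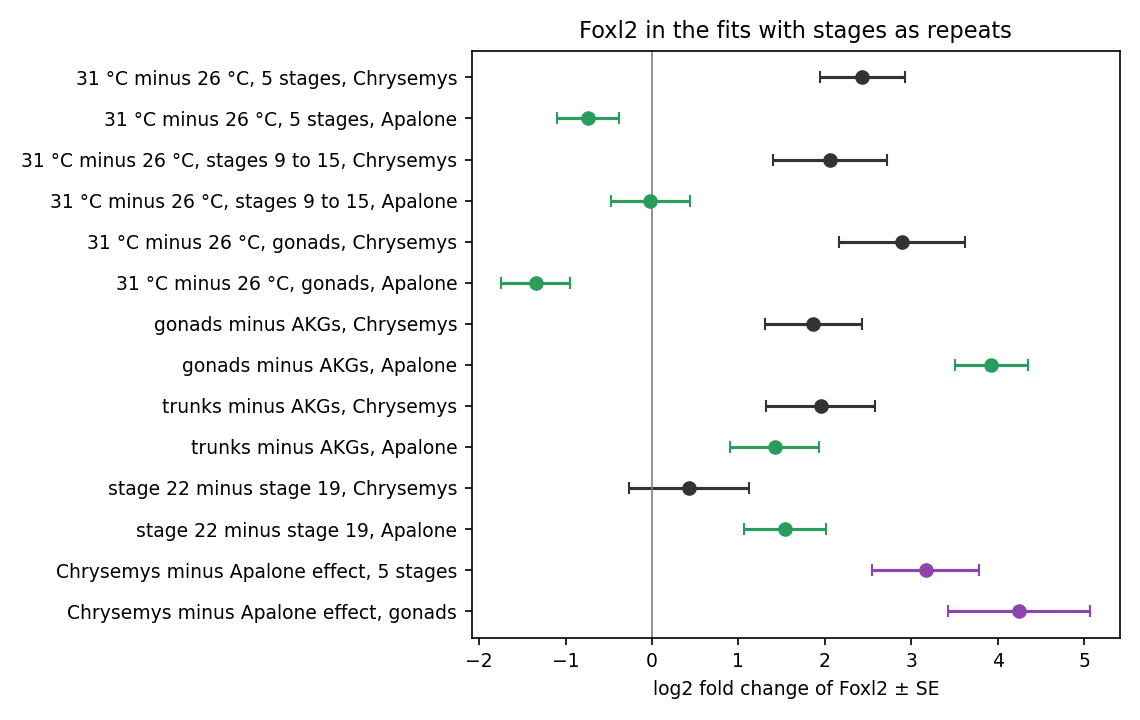
Fitted log2 fold changes of Foxl2 in edgeR (points, bars are 1 SE) for the temperature contrasts (31 °C over 26 °C) in each species and their difference, and for the tissue contrasts. The Chrysemys temperature effects lie above 0 (2.89 in the gonads), the Apalone gonad effect lies below 0 (-1.34), and the gonad over AKG contrast is above 0 in both species (1.87 and 3.93).

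Foxl2 was more abundant in gonads than in AKGs in both species. The contrast of stages 19 and 22 with stages 12 and 15 gave 3.93 ± 0.42 in Apalone (adjusted p = 0.000822 in edgeR), where 5.35% of genes were called higher in gonads, and this call was kept under every alternative run. In Chrysemys it gave 1.87 ± 0.56 (adjusted p = 0.0225 in edgeR), a call that 19.2% of genes shared. That call was lost when stage 12 (adjusted p = 0.0748), stage 15 (0.082), stage 19 (0.0556) or stage 22 (0.0583) was left out. The gonad libraries also held signal of other tissue. In the same contrast 5 of 5 kidney markers were called higher in Chrysemys gonads (median log2 fold change 2.84) and 2 of 5 in Apalone (0.78). All 5 gonad markers were called higher in each species (medians 3.49 and 2.13). The part of gonad and kidney content in the Foxl2 contrast was not tested.

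The Chrysemys contrast joins both temperatures, and whether they differ in it was not tested. At 31 °C the stage 22 gonad stood 13.2 times above the stage 15 AKG (4.26 to 66.2), and the stage 19 gonad 7.21 times above it (2.14 to 37.9). At 26 °C the ratio of stage 22 to stage 15 was 1.25 (0.143 to 15.0), and that of stage 19 to stage 15 was 1.99 (0.425 to 18.7). Chrysemys gonads at 26 °C were therefore not distinguishable from the AKG at this depth.

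Apalone gonads stood above AKGs at both temperatures. The ratio of the stage 22 gonad to the stage 15 AKG was 10.95 (3.53 to 55.0) at 31 °C and 21.1 (8.80 to 66.0) at 26 °C, and that of stage 19 to stage 15 was 5.25 (1.59 to 27.2) at 31 °C and 5.60 (2.17 to 18.4) at 26 °C. Between the gonad stages, Foxl2 at stage 22 stood 2.09 times above stage 19 (1.25 to 3.56) at 31 °C and 3.77 times (2.55 to 5.70) at 26 °C. Chrysemys showed a ratio of 1.83 (1.07 to 3.24) at 31 °C and 0.626 (0.111 to 2.43) at 26 °C. The edgeR contrast of stage 22 with stage 19 did not pass in Apalone (1.54 ± 0.48, adjusted p = 0.305) or in Chrysemys (0.43 ± 0.70, adjusted p = 0.893), and it called 0 genes in either species, with 1103 and 995 at an unadjusted p under 0.05.

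Foxl2 in the trunk preceded any gonad that could be dissected. Stage 9 trunks stood 3.21 times above stage 12 AKGs (1.84 to 5.88) at 31 °C in Chrysemys and 2.43 times (0.463 to 24.0) at 26 °C. In Apalone the ratios were 3.61 (0.952 to 20.1) at 31 °C and 5.21 (1.08 to 49.6) at 26 °C. The edgeR contrast of trunks with AKGs was 1.95 ± 0.63 in Chrysemys (adjusted p = 0.0639) and 1.42 ± 0.51 in Apalone (adjusted p = 0.0857), where 11.7% and 17.2% of genes were called. In the stage 9 trunks of Chrysemys the gonad markers summed to 23.4 at 31 °C and 17.3 at 26 °C, the neuronal markers to 311 and 151, and the markers of pituitary and periocular tissue, other sites of Foxl2 in mammals, to 27.3 and 36.6 scaled CPM. Of these, 5 of 6 neuronal markers were called higher at 31 °C and 0 of 3 measured pituitary and periocular markers were, beside 14.8% of all genes. Among the 5 gonad markers, Lhx9 was called higher at 31 °C (116 counts at 31 °C and 16 at 26 °C). Gata4 was called higher at 26 °C (74 and 160 counts), as were 10.4% of all genes. The part of such cells in the Foxl2 difference was not tested.

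Sorted by level, the 10 Chrysemys libraries began with stage 22, stage 9, stage 19 and stage 12 at 31 °C. Stage 19 and stage 9 at 26 °C followed, then stage 15 at 31 °C, and stages 22, 15 and 12 at 26 °C closed the order. Of the 9 pairs of neighbours, 3 differed at an adjusted p under 0.05 in Fisher's exact test, namely stage 22 from stage 9 at 31 °C (0.0414), stage 19 from stage 12 at 31 °C (0.000454) and stage 12 at 31 °C from stage 19 at 26 °C (0.0196). Between those libraries 72.6%, 73.3% and 72.9% of genes differed by the same rule. On read pairs the first and last were at 0.192 and 0.122, and only the step between stages 19 and 12 at 31 °C remained (0.0146, with 64.2% of genes past it). Among the 6 lowest libraries no pair of neighbours differed at that threshold.

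In Apalone the order began with the gonads, stage 22 at 26 °C, stage 22 at 31 °C, stage 19 at 26 °C and stage 19 at 31 °C. The trunks followed at 31 °C and 26 °C, then stage 15 at 26 °C and 31 °C, and stage 12 at 31 °C and 26 °C. The first pair differed (adjusted p = 4.82e-26 in Fisher's exact test), as did the 2 stage 19 gonads (0.00281, and 0.0698 on read pairs), and stage 19 from stage 9 at 31 °C (0.00103, and 0.0377 on read pairs), beside 44.6%, 44.2% and 59.2% of all genes. On read pairs 29.9% of genes differed in the first pair and 45.5% in the last. All gonad libraries of Apalone thus stood above all its earlier libraries, an arrangement not seen in Chrysemys, where the trunk at 31 °C ranked second.

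Genes of the ovarian pathway were read from a list of 30, of which 16 were matched to an entry by symbol. In Chrysemys gonads at stage 22, 3 of 16 were called higher at 31 °C and 2 higher at 26 °C (13.6% and 9.8% of all genes, medians of the log2 ratio -0.29 for the list and 0.05 for all genes). Aromatase, the best known target of Foxl2 in the ovary, had 114 counts at 31 °C and 2 at 26 °C. Its ratio was 47.6, with a counting interval of 8.20 to 1912. Fst, which encodes the activin-binding protein follistatin and is another mammalian target, stood at 31.3 scaled CPM at 31 °C and 10.3 at 26 °C (log2 ratio 1.6). Gata2, a zinc-finger factor of the early ovary in the mouse, stood at 24.0 and 6.88 (1.80). The list members called higher at 26 °C were Esr1, estrogen receptor alpha, at 13.7 at 31 °C and 99.9 at 26 °C (-2.86), and the secreted metalloprotease gene Adamts19 at 23.6 and 54.9 (-1.22).

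At stage 19 of Chrysemys, 2 of 16 ovarian genes were called higher at 31 °C and 2 higher at 26 °C (16.3% and 12.3% of all genes, median 0.31, and 0.05 for all genes). Irx3, a homeobox factor of pregranulosa cells in the mouse, stood at 22.4 at 31 °C and 6.52 at 26 °C (log2 ratio 1.78), and Gata2 was called at 0.56. Esr1 (-1.24) and Adamts19 (-0.78) were again the genes called higher at 26 °C. Aromatase had 6 counts at 31 °C and 2 at 26 °C at this stage (7.15, counting interval 0.574 to 375) and was not called. Foxl2 itself had 40 counts at 31 °C and 20 at 26 °C there, of which the 26 °C library was the deeper.

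Before the gonads could be dissected, few ovarian genes were called in Chrysemys. Ctnnb1, the beta-catenin of Wnt signalling, was the only one of 16 called at stages 9 and 12, in both cases higher at 31 °C (ratios 1.25 and 1.10). Of all genes, 14.8% at stage 9 and 4.9% at stage 12 were called higher at 31 °C, and 10.4% and 8.12% higher at 26 °C, so 1 of 16 does not set the list apart. At stage 15, where 8.79% of all genes were called higher at 31 °C and 9.25% higher at 26 °C, 4 of 16 were called, all higher at 31 °C: Adamts19 (2.59), Foxo3, a forkhead factor that keeps mouse oocytes dormant (1.84), Inhba, a subunit of activin (3.11), and Lef1, a nuclear partner of beta-catenin (1.58). Foxl2 was at its Chrysemys minimum for 31 °C at that stage.

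The ovarian genes of Apalone gonads gave 0 called higher at 31 °C and 3 higher at 26 °C of 16 at stage 22 (4.71% and 6.38% of all genes, median -0.25, and 0.01 for all genes). They were Fst at 83.6 at 31 °C and 136 at 26 °C (log2 ratio -0.71), Adamts19 (-0.82) and Ctnnb1 (-0.43). Fst thus differed in the same direction as Foxl2 at stage 22 within each species. Aromatase was not called, with 26 counts at 31 °C and 14 at 26 °C at stage 22 (ratio 1.48, 0.548 to 4.38), 12 and 6 at stage 19, and 0 in all 6 earlier libraries, which allows levels of up to 0.627 to 1.16 scaled CPM (3 read pairs), depending on the library.

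At stage 19 of Apalone, 2 of 16 ovarian genes were called higher at 31 °C, Gata2 at 61.0 and 25.9 scaled CPM (log2 ratio 1.23) and the nuclear receptor gene Nr2f2 (0.56). The 3 called higher at 26 °C were Adamts19 (-0.68), Lef1 (-0.49) and Ctnnb1 (-0.20), with a list median of -0.27 and 0.01 for all genes, of which 4.83% were called higher at 31 °C and 6.38% at 26 °C. At earlier Apalone stages the calls were Ctnnb1 higher at 31 °C at stages 12 and 15, Irx3 higher at 31 °C and Nr2f2 lower at 31 °C at stage 15, and 0 at stage 9. Of all genes, 2.14%, 3.26% and 3.68% were called higher at 31 °C at stages 9, 12 and 15. Those called higher at 26 °C made up 2.39%, 2.11% and 4.81%.

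Of 18 genes known as Foxl2 targets in mammals, 8 were matched to an entry by symbol. At stage 22 of Chrysemys, Aromatase and Fst were called higher at 31 °C, and Sox9 (33.8 at 31 °C and 143 at 26 °C, log2 ratio -2.07) and Amh, the anti-Müllerian hormone gene of Sertoli cells (1.5 and 1781, -10.2), were called higher at 26 °C. At stage 19 the called targets were Cdkn1b, which encodes a cell cycle inhibitor (36.7 and 22.0, 0.74), and Amh (2.90 and 239, -6.37). Sox9 was called higher at 31 °C at stages 12 and 15, with ratios of 1.29 and 1.46, as were 4.9% and 8.79% of all genes. List medians were -0.02 at stage 19 and 0.18 at stage 22, against 0.05 for all genes at each. At stage 19, 16.3% of all genes were called higher at 31 °C and 12.3% higher at 26 °C. At stage 22 these shares were 13.6% and 9.8%.

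Target genes of Apalone took another course. At stage 19, Amh (17.1 at 31 °C and 47.9 at 26 °C) and Sox9 (14.5 and 71.2) were the 2 of 8 called, both higher at 26 °C. At stage 22, Fst was called higher at 26 °C and Amh higher at 31 °C, with 230 counts at 31 °C and 0 at 26 °C, which is at least 24.4-fold higher by the lower end of the counting interval on read pairs. Sox9 was also called higher at 31 °C at stage 15 (2.41), as were 3.68% of all genes. The list medians were -0.73 at stage 19 and 0.17 at stage 22, against 0.01 for all genes. Of all genes, 4.83% at stage 19 and 4.71% at stage 22 were called higher at 31 °C, and 6.38% at each higher at 26 °C.

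The Apalone pool with the most Foxl2 was thus a gonad pool in which Amh stood at 0 counts, and Dmrt1 and Cldn11 were below their level in its 31 °C counterpart. Dmrt1, a factor that maintains Sertoli cell identity in the mouse, had 230 counts at 31 °C and 10 at 26 °C at stage 22 (ratio 18.3, 7.62 to 57.5), while at stage 19 it had 452 and 814. Cldn11, the tight junction claudin of Sertoli cells, stood at 124 at 31 °C and 19.3 at 26 °C at stage 22 (log2 ratio 2.69). Not all testis genes went that way. Sox9 was not called at stage 22 (22.9 at 31 °C and 19.0 at 26 °C, log2 ratio 0.27), and neither were Gata4, Nr5a1 and Zfpm2. Fgfr2 was called higher at 26 °C (87.9 and 142, log2 ratio -0.69), the direction of Foxl2. Of 24 testis genes, 5 were called higher at 31 °C and 1 higher at 26 °C, beside 4.71% and 6.38% of all genes. Skeletal muscle markers in the same pair of libraries ran the other way from Foxl2, and 7 of 8 were called higher at 31 °C, beside 4.71% of all genes. Because embryos were pooled unsexed, a difference in the number of females between these pools and an effect of temperature cannot be told apart.

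Testis genes of Chrysemys were called in both directions at stage 22, more of them against Foxl2 than with it. Of 24 measured, 5 were called higher at 31 °C and 10 higher at 26 °C (13.6% and 9.8% of all genes, list median -0.55). Among those higher at 31 °C were Hpgds (21.2 at 31 °C and 6.88 at 26 °C, log2 ratio 1.63) and Fgfr2 (80.7 and 57.6, 0.49). Those higher at 26 °C included Amh, Sox9, Dmrt1 (1.25 at 31 °C and 21.4 at 26 °C, -4.10), Cldn11 (31 and 625, -4.34), Nr5a1, which encodes steroidogenic factor 1 (5.62 and 85.6, -3.93), Gata4 (-3.97), Lhx9 (-2.00), Zfpm2, known as Fog2 (-1.66), and Nr0b1, known as Dax1 (-1.37). Nr5a1, Gata4 and Lhx9 serve the early gonad of both sexes in mammals and, like Amh, are among the 5 gonad markers. The remaining gonad marker, Emx2, was not called (47.0 at 31 °C and 58.5 at 26 °C, log2 ratio -0.32). The part of gonad content in the Foxl2 difference was not tested. At stage 19 the testis list had 2 called higher at 31 °C and 3 higher at 26 °C (Amh, Cldn11 and Nr5a1), beside 16.3% and 12.3% of all genes. Dhh was among the 2 higher at 31 °C (17.2 at 31 °C and 6.23 at 26 °C, log2 ratio 1.47).

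In Apalone, 1 of 24 testis genes was called higher at 31 °C and 8 at 26 °C at stage 19 (4.83% and 6.38% of all genes), against 5 and 1 at stage 22 (4.71% and 6.38%). Dmrt1 (-1.29), Zfpm2 (-1.34), Lhx9 (-0.48) and Cldn11 (-1.33) were among the 8. At stage 22 Dmrt1 and Cldn11 were called higher at 31 °C, opposite to Foxl2, while Lhx9 (0.79) and Zfpm2 (0.10) were not called. Foxl2 itself was not called at stage 19.

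**Figure D4:**
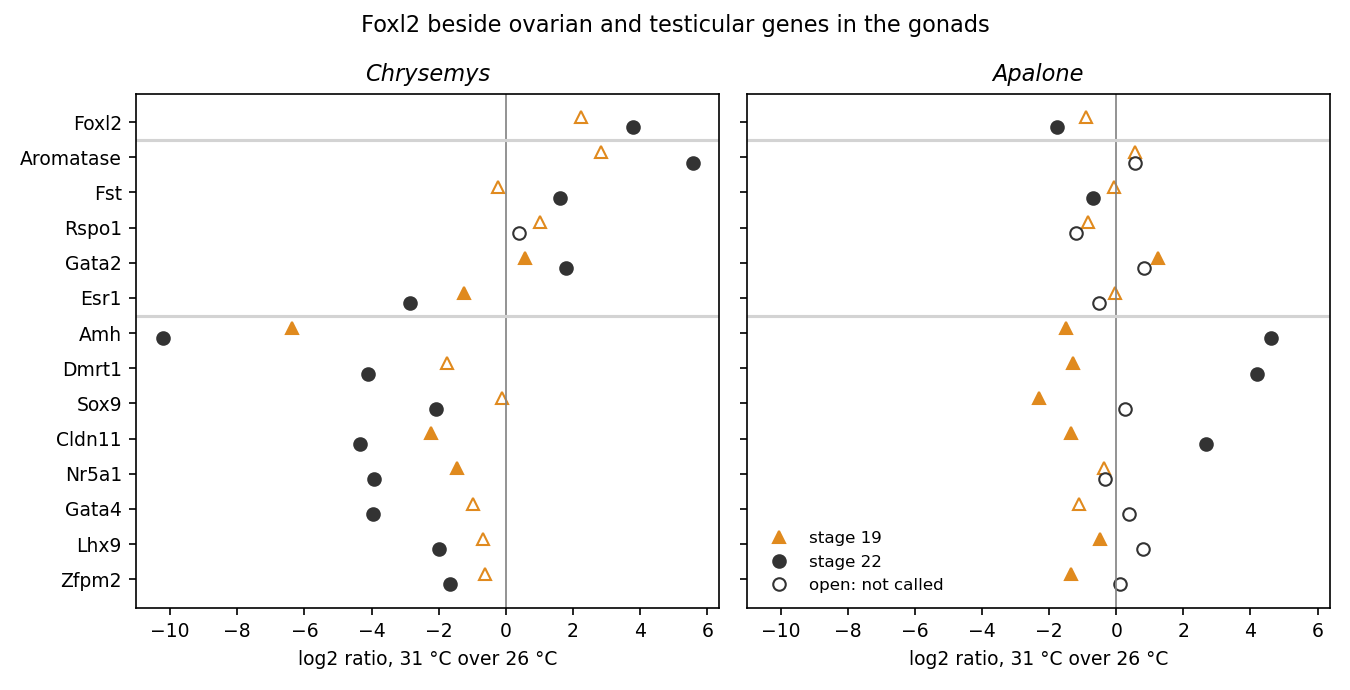
Log2 ratio of the 31 °C to the 26 °C level in the gonads of stages 19 and 22 for Foxl2 and genes of the ovary and testis; filled symbols passed Fisher's exact test at an adjusted p under 1e-10, and the Apalone Amh value at stage 22 (4.61) is the lower end of its counting interval on read pairs. Foxl2 and Aromatase lie to the side of 31 °C in Chrysemys at stage 22 (3.8 and 5.57) and Amh to the side of 26 °C (-10.2). In Apalone at stage 22 Foxl2 (-1.76) and Amh lie on opposite sides in the reverse arrangement. At stage 19 of Apalone both lie to the side of 26 °C (-0.90 for Foxl2 and -1.48 for Amh).

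Proteins that bind Foxl2 or modify it in mammals gave 13 measured entries, including Esr1 and Nr5a1. In Chrysemys gonads 0 were called higher at 31 °C, and 5 at stage 19 and 7 at stage 22 were called higher at 26 °C. Of all genes, 16.3% at stage 19 and 13.6% at stage 22 were called higher at 31 °C, and 12.3% and 9.8% higher at 26 °C. In Apalone gonads the counts were 0 higher at 31 °C and 2 higher at 26 °C at each stage, beside 6.38% of all genes higher at 26 °C at each. In edgeR's gonad effect, the partners Nr5a1 (-2.71 ± 0.59, adjusted p = 0.0375) and Esr1 (-2.09 ± 0.47, adjusted p = 0.0422) passed in Chrysemys, as did Amh (-8.31 ± 0.77, adjusted p = 6.7e-05) and Cldn11 (-3.32 ± 0.43, adjusted p = 0.00147), beside 0.405% of all genes called lower.

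Among other forkhead genes, 18 were matched to an entry by symbol. In Chrysemys gonads Foxf1 and Foxf2, factors of the mesenchyme around the gut in the mouse, were called higher at 31 °C. Foxf1 had 178 counts at 31 °C and 8 at 26 °C at stage 19, and 140 and 12 at stage 22. Foxf2 had 70 and 4 counts at stage 19 and 258 and 2 at stage 22 (ratio 108, counting interval 19.0 to 4286). Foxc2, a mesenchymal and vascular factor, was also called higher at 31 °C at both stages (log2 ratios 1.02 and 1.13), as was Foxp4 at stage 19 (0.61).

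Forkhead genes called higher at 26 °C in Chrysemys gonads were Foxo1 at stage 19 (-1.11) and Foxk1 (-0.77), Foxo4 (-0.95) and Foxo6 (-1.49) at stage 22. The list counts were thus 4 higher and 1 lower of 16 measured at stage 19, and 3 and 3 of 17 at stage 22, beside 16.3% and 12.3% of all genes at stage 19 and 13.6% and 9.8% at stage 22. In edgeR's gonad effect, Foxf1 (4.42 ± 0.64, adjusted p = 0.00262) and Foxf2 (5.88 ± 0.55, adjusted p = 6.7e-05) passed, and Foxl2 at 2.89 did not. At stage 9 Foxk1 (-0.86), Foxo4 (-0.45) and Foxp4 (-0.75) were called lower at 31 °C, beside 10.4% of all genes. Foxo4 (0.42) and Foxp4 (0.78) were called higher at stage 12, beside 4.9% of all genes. At stage 15 Foxk1 (1.71), Foxn3 (1.71) and Foxo3 (0.88) were called higher, beside 8.79% of all genes.

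In Apalone, Foxc2 was the forkhead gene called in gonads, higher at 31 °C at stage 19 (378 counts at 31 °C and 36 at 26 °C) and at stage 22 (226 and 58), opposite to Foxl2. Of all genes, 4.83% at stage 19 and 4.71% at stage 22 were called higher at 31 °C. Foxf2 had 0 counts in all 4 Apalone gonad libraries, and Foxf1 had 0 at 31 °C and 2 at 26 °C at each gonad stage. Earlier calls included Foxf2 (104 counts at 31 °C and 0 at 26 °C) and Foxp4 (550 and 206) at stage 15, both higher at 31 °C, and there were 0 at stage 9. Of all genes, 3.68% were called higher at 31 °C at stage 15. At stage 9, 2.14% were called higher at 31 °C and 2.39% higher at 26 °C.

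Markers of several other tissues were higher at 31 °C in the dissected gonads of Chrysemys, as Foxl2 was. Skeletal muscle markers summed to 897 at 31 °C and 42.4 at 26 °C at stage 19 (7 of 8 called higher at 31 °C), and 6 of 8 were called at stage 22, with none of the 8 at 0 in these libraries. Neuronal markers summed to 595 and 322 at stage 19 (4 of 6 called) and 272 and 72.3 at stage 22 (5 of 6). Of all genes, 16.3% at stage 19 and 13.6% at stage 22 were called higher at 31 °C. Dbh, a catecholamine enzyme of the adrenal medulla, stood at 283 and 176 at stage 19 and 70.9 and 18.9 at stage 22, and Hemgn, an erythroid gene, at 167 and 80.1 and at 209 and 46.1. Cartilage markers ran the other way, at 271 and 376 and at 91.9 and 622, and kidney markers stood at 1048 and 1493 and at 1924 and 1601. The share of these tissues in the Foxl2 difference of Chrysemys was not tested. Pituitary and periocular markers summed to 3.58 at 31 °C and 1.58 at 26 °C at stage 19 and to 4.75 and 2.54 at stage 22, also the direction of Foxl2. Fisher's exact test called 0 of them at either stage. edgeR's gonad effect called 1 of 3 higher at 31 °C (median log2 fold change 1.48), beside 1.22% of all genes. The pituitary hormone gene Tshb had 0 counts in both stage 22 libraries. The part of pituitary and periocular cells in the Foxl2 difference was not tested either.

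In Apalone the muscle markers did not move with Foxl2 in a constant way. They summed to 101 at 31 °C and 184 at 26 °C at stage 19, on the same side as Foxl2, and to 10077 and 385 at stage 22, on the other side. Myog, the muscle factor myogenin, had 142 counts at 31 °C and 0 at 26 °C at stage 22, and 0 at both temperatures at stage 19. Dbh stood at 86.8 and 3.28 at stage 19 and 69.7 and 19.9 at stage 22. Kidney markers summed to 837 and 508 at stage 19 (3 of 5 called higher at 31 °C) and to 1611 and 2039 at stage 22 (3 of 5 called higher at 26 °C). Pituitary and periocular markers summed to 2.41 and 0.328 at stage 19 and to 7.30 and 0 at stage 22, where 1 of 2 was called higher at 31 °C. Of all genes, 4.83% at stage 19 and 4.71% at stage 22 were called higher at 31 °C. Germ cell markers (Ddx4, Mael, Piwil1, Piwil2 and Tfap2c) summed to 48.7 at 31 °C and 109 at 26 °C at stage 19 and to 62.7 and 135 at stage 22, the direction of Foxl2, with 1 and 2 of 5 called higher at 26 °C (6.38% of all genes at each stage). In Chrysemys the same 5 summed to 85.7 and 94.1 at stage 19 and 120 and 171 at stage 22, against the direction of Foxl2, with 0 and 2 of 5 called higher at 26 °C (12.3% and 9.8% of all genes).

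The genes whose levels ran most like Foxl2 were ranked by Pearson's r of log2(level + 1) over the 10 libraries of a species, a description in which all points share the library's tissue and depth. Among 11867 Chrysemys entries with a mean level of 1 or more, the named members of the highest 10 were Ankrd2, a muscle ankyrin repeat gene (0.92), the carbonic anhydrase gene Ca13 (0.90), Lonp1, a mitochondrial protease gene (0.90), Acaa2, of fatty acid oxidation (0.89), Cnn1, a smooth muscle calponin gene (0.89), Arfgap2 (0.88) and Aars2 (0.87). Pak5 (-0.90) and Gpr75 (-0.87) were the named members of the lowest 5. Ca13, Lonp1, Acaa2, Cnn1 and Arfgap2 were highest in the library where Foxl2 was highest, stage 22 at 31 °C, and Ankrd2 and Aars2 in stage 9 at 31 °C. Without that library, an alternative chosen after the data were seen, 3 of the 10 stayed among the highest 10, and Ankrd2 (0.90) and Aars2 (0.87) were the named genes at or above 0.87.

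In Apalone, among 10275 entries, the named members of the highest 10 were Psma8, a proteasome subunit gene of germ cells in the mouse (0.98), Ddx4, the germ cell RNA helicase Vasa (0.97), and Shcbp1l, a spindle protein gene of the mouse testis (0.97). The lowest 5 included Marcks (-0.94), Gde1 (-0.94) and Stk25 (-0.93). Ddx4 stood at 16.9 at 31 °C and 47.1 at 26 °C at stage 22, and at 8.68 and 19.7 at stage 19. Without the stage 22 pool at 26 °C, the r of Ddx4 was 0.96 and that of Psma8 0.96. In Chrysemys the r of Ddx4 with Foxl2 was 0.18 and that of Psma8 was -0.05, and in Apalone the r of Ankrd2 was 0.10.

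Aromatase itself had an r with Foxl2 of 0.64 in Chrysemys, which was 0.23 without the stage 22 library at 31 °C. In Apalone it was 0.88, with and without the stage 22 pool at 26 °C, where Foxl2 was highest. No filter on the mean level was applied here. Aromatase had 0 counts in every Apalone library before the gonads, so its r there rests on the step to the gonads. Within the gonads its counts leaned to 31 °C at stage 19 (12 and 6) and stage 22 (26 and 14), opposite to Foxl2. Dmrt1 had an r of 0.53 in Apalone, and of 0.89 without the stage 22 pool at 26 °C, against -0.08 in Chrysemys. In Apalone, Foxl2 and Dmrt1 thus both stood above their AKG levels in 3 of the 4 gonad pools and parted in the stage 22 pool at 26 °C. Leaving out that pool was chosen after the data were seen. Between the gonad stages at 31 °C they also moved apart, with Foxl2 at 5.79 and then 12.1 and Dmrt1 at 54.5 and then 28.9.

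**Figure D5:**
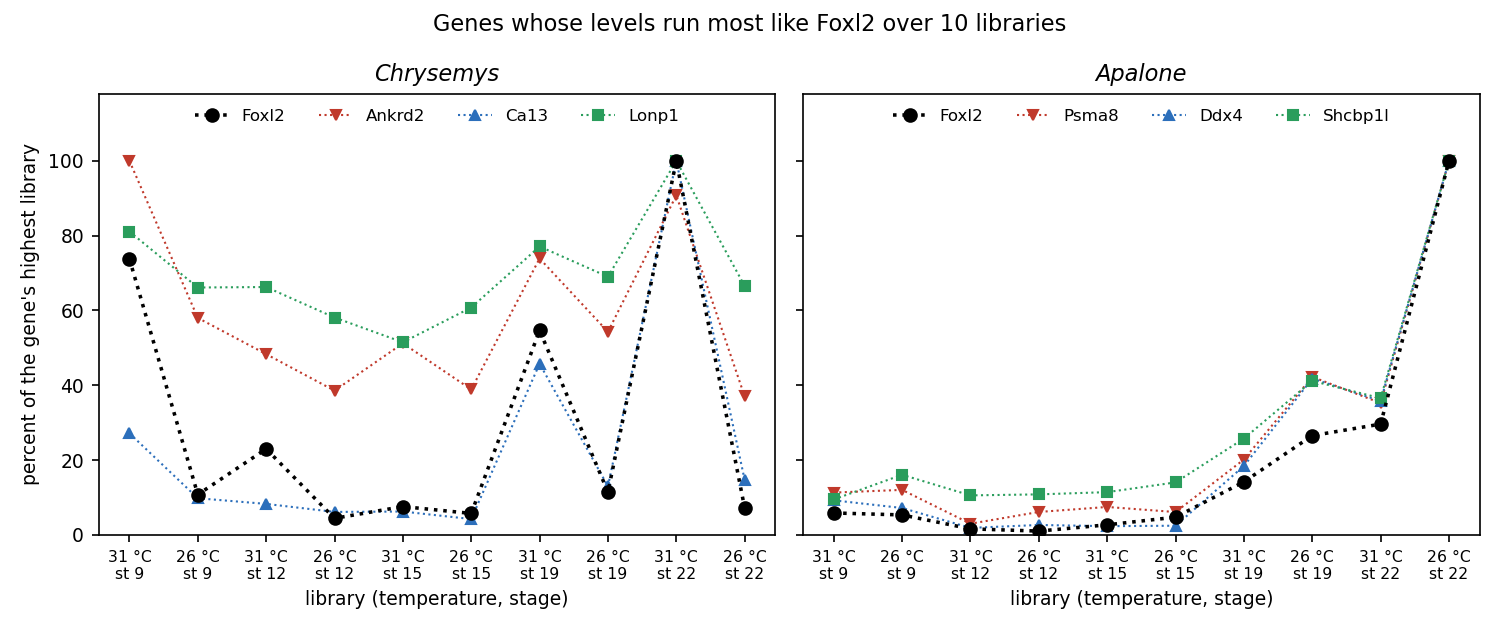
Level of Foxl2 and of the 3 named genes with the highest Pearson's r to it, in each of the 10 libraries of Chrysemys (left) and Apalone (right), as percent of each gene's highest library; dotted lines only guide the eye. Ca13 and Lonp1 are highest with Foxl2 in Chrysemys at stage 22 and 31 °C, and Psma8, Ddx4 and Shcbp1l are highest with Foxl2 in Apalone at stage 22 and 26 °C.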

How the data were processed

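Foxl2 was read from the deposited raw counts of 20 RNA-seq libraries. The authors aligned the reads (paired-end, 100 bp) of Chrysemys and Apalone alike with GSNAP (2012-03-23) to annotated genes of the Chrysemys genome 3.0.1 and counted them with HTSeq, and the submitters' processing notes also name Trimmomatic 0.27. Counting ignored strand, so reads of an overlapping gene on the other strand could not be told apart. All counts are even. Symbols, found for 6874 of 13940 Chrysemys and 6784 of 12678 Apalone entries, came from annotation descriptions and a RefSeq table of another assembly, used for names only. A list gene without a match may therefore still be present as an entry without a symbol. No sequence is printed.

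Library totals were adjusted by an upper-quartile factor (percentile 75), without the further scaling to housekeeping genes that the study chose for its calls. Ratios with a 0 enter list medians at a floor of 3 counts. Fisher's exact test (scipy 1.17.1) and edgeR 4.0.16 (TMM, filterByExpr) are described with the results, and DESeq2 1.42.0 was an alternative. Each SE given for edgeR was derived from its test, as the absolute log2 fold change divided by the square root of the F statistic. Both scripts were tested on simulated data. Named genes were those called in the ovary, target and forkhead lists, up to 12 testis genes, and the 10 highest and 5 lowest correlations. Members and lists were chosen with earlier results of these data known. Results for some genes are not reported here.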

Additional observations from a re-analysis of the deposited data

Results flagged for a closer look

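The temperature effect of Foxl2 in the gonads differed between the species by 4.25 ± 0.82 log2 units (Chrysemys minus Apalone) in the edgeR test of that difference, at an unadjusted p of 0.000154 and an adjusted p of 0.117. It drew attention because the 2 species moved in opposite directions under the same contrast at both gonad stages, with effects of 2.89 ± 0.73 in Chrysemys and -1.34 ± 0.40 in Apalone. The adjusted p ranged between 0.00165 and 0.628 over 10 alternatives.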

How the results depend on the processing

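Of 60 alternatives to the per-stage tests, 58 kept direction and side of the threshold. On read pairs, Fisher's exact test no longer called Chrysemys stage 9 (log2 ratio 2.77, adjusted p = 1.75e-08) and stage 22 (3.8, 1.33e-09). Of 84 alternatives to the main edgeR results, 72 kept both, 4 lost and 8 gained a call. With DESeq2 the calls gained were the Chrysemys effect over stages (2.41), in gonads (2.95), and the species differences over stages (3.18) and in gonads (4.35), with 48, 494, 17 and 108 genes called. The Chrysemys gonad effect also passed with no filter on low counts (2.88, adjusted p = 0.038, 322 genes called against 208) and on read pairs (2.83, 0.0422). Leaving out a stage moved it between 2.14 (without stage 22) and 3.79 (without stage 19), and it passed without stage 12 (0.0437) or stage 15 (0.0331). The Chrysemys gonad over AKG contrast ranged between 1.51 and 2.23, and of the fits that left out a stage only that without stage 9 kept its call (0.0361). Of 84 alternatives to the other edgeR results, the Apalone effect at stages 9 to 15 reversed to 0.29 without stage 15 (lowest -0.21, without stage 12), and the Chrysemys trunk contrast passed on read pairs (0.0409) and without stage 22 (0.0413). Neighbours that differed in the Chrysemys order numbered 1 on read pairs and not 3. Of the 10 genes most like Foxl2, Chrysemys kept 6 with a pseudocount of 0.1, 1 by Spearman's rank correlation and 3 without the stage 22 library at 31 °C, the last chosen after seeing the data, and Apalone kept 5 by Spearman and 6 at a mean level of 10 or more. The cause of these changes was not tested. No paired analysis was possible by replicate number because each group held 1 library, and stage was the block of the edgeR fits. At 4 to 20 counts per library, depth limits every Chrysemys value at 26 °C.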
